A study of Mus musculus with 16 samples.

Results

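Activation of CD4+ T cells can change how much of an mRNA is carried on polysomes, and the genes described here are those whose polysome loading, relative to their cytosolic mRNA, moved the same way in Foxp3+ and Foxp3- cells. All 16 arrays of the series were used, and all 16475 genes on them were tested. For each gene the polysome-minus-cytosol difference ex vivo was subtracted from the same difference after activation, and the result was averaged over both subsets. This value is called the shift and is in log2 units, so that a shift of 1 is a 2-fold rise of polysome-associated over cytosolic mRNA with activation, relative to the other genes. The processing of the arrays (RMA) sets them to a common scale. A rise or fall of loading shared by all genes would thus not show in the shift. With both subsets moving the same way and an adjusted p under 0.05 (limma, Benjamini-Hochberg), 141 genes were called, 82 with a higher shift (0.498% of all genes tested) and 59 with a lower shift (0.358%).

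The cells were CD4+ T cells from lymph nodes and spleens of female GFP-Foxp3 knock-in mice, 6 to 12 weeks old per the study's methods and of strain C57BL/6 per the labels, sorted by GFP into Foxp3+ (regulatory) and Foxp3- cells. Ex vivo cells were lysed without culture, with 100 µg/ml cycloheximide in all buffers and media, and the RNA of 2 experiments was pooled for each sample. Activated cells were cultured for 36 h on plate-bound CD3 and CD28 antibodies (5 µg/ml) with 100 U/ml recombinant hIL-2, and received cycloheximide only at the end of the culture. From each subset and state, cytosolic RNA and RNA carrying at least 3 ribosomes (polysome-associated mRNA) were hybridised in biological duplicate, which gives 8 groups of 2 arrays, numbered 1 to 16 in the labels. All ex vivo arrays, all activated Foxp3- arrays and all activated Foxp3+ arrays form 3 separate series by the array names in the labels, so state, array series and the handling of cycloheximide cannot be told apart. Among activated arrays, subset and array series cannot be told apart either. The polysome and cytosolic arrays that are subtracted from each other lie within 1 series. Per the study, the absorbance profiles of Foxp3+ cells in both states and of Foxp3- cells ex vivo could not be detected apart from the monosome peak, which was used to align the gradients.

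A ribosome is loaded onto an mRNA mainly at initiation, so an mRNA that is initiated often carries several ribosomes and sediments in the polysome fractions, whereas a rarely initiated one stays with few or none. Resting T cells translate little. Engagement of the T cell receptor and CD28 activates mTOR, which releases the cap-binding protein eIF4E from its inhibitors and favours mRNAs that begin with an oligopyrimidine tract, among them those of ribosomal proteins and elongation factors. Measuring cytosolic mRNA beside polysome-associated mRNA separates a change in loading from a change in the amount of mRNA.

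Marker genes matched the labels. Foxp3, the lineage factor of regulatory T cells, lay between 9.42 and 10.76 on the 8 arrays of Foxp3+ cells and between 3.74 and 6.85 on the 8 of Foxp3- cells (log2, RMA). All 7 measured T cell markers were above the array's median on every array, whose medians ran from 4.845 to 5.065. The arrays carry no count of molecules, and with 2 arrays per group their number limits the precision. The within-group spread was wider after activation, with a median SD over genes of 0.422 against 0.194 ex vivo. By subset it was 0.189 in Foxp3+ and 0.156 in Foxp3- cells ex vivo, and 0.408 and 0.328 after activation. The difference between the 3' and the 5' probe set of actin, a sign of RNA integrity and amplification, ranged from 4.16 to 4.64 in Foxp3+ cells ex vivo, from 0.82 to 1.38 in Foxp3- cells ex vivo and from -0.59 to -0.2 after activation. The shift computed on this difference was 0.28 in each subset, and on the like difference of Gapdh it was 0.29 in Foxp3+ and -0.67 in Foxp3- cells. Their part in the shifts of genes was not tested.

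The question was whether translation of particular mRNAs moves with activation irrespective of subset. Across all genes, 55.9% had the same sign in both subsets, and the Pearson correlation of the subset shifts was 0.182 (Spearman 0.148), a description over 16475 genes that are not independent and that share the array on which they were read. The 2 subset shifts share no array. Of the 46 genes called in Foxp3+ cells alone (0.279% of genes), 34 had the same sign in Foxp3- cells. Of the 26 called in Foxp3- cells alone (0.158%), 20 had the same sign in Foxp3+ cells. The values were smaller in the subset not used for the call: the genes called in Foxp3+ cells had a median size of 3.05 there and of 0.66 in the same direction in Foxp3- cells, and those called in Foxp3- cells had 3.02 there and 0.58 in Foxp3+ cells. Of the 141 genes called for the mean of both subsets, 108 had an unadjusted p under 0.05 in each subset. The call used the same arrays and required the same sign, so this count is largely set by the selection. The genes called in each subset on its own were 4, namely Isg20, Apoc3, Hpx and Ttr. Only 4 genes were called for a difference between the subsets (0.0243%), and 1453 had an unadjusted p under 0.05 for it.

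**Figure D1:**
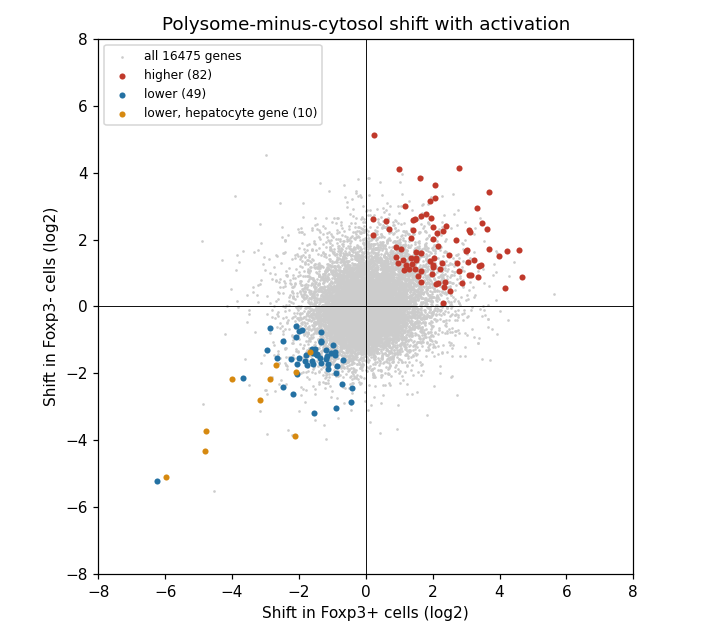
Shift with activation in Foxp3+ cells (x axis, log2) against that in Foxp3- cells (y axis, log2), 1 point per gene, grey for all 16475 genes, red for the 82 called higher and blue or orange for the 59 called lower. The called genes share a sign in both subsets by construction, and the 4 called genes farthest to the lower left include Serpina1c, Hpx and Ttr.

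The number of calls changed with single arrays. Leaving out 1 of the arrays of Foxp3+ cells ex vivo left 9 higher and 8 lower genes (array 1), 10 and 9 (array 2), 3 and 6 (array 5) or 24 and 16 (array 6). For the arrays of Foxp3- cells ex vivo the numbers were 4 and 4 (array 3), 23 and 20 (array 4), 10 and 10 (array 7) and 12 and 31 (array 8). Leaving out 1 of the activated Foxp3+ arrays raised them to 230 and 206 (array 13), 269 and 166 (array 14), 134 and 104 (array 15) or 233 and 161 (array 16). Of the activated Foxp3- arrays, array 12 gave 62 and 35, and arrays 9, 10 and 11 gave 64 to 93 higher and 59 to 74 lower genes. In 138 of the 141 genes both subsets kept their direction whichever array was left out, which the choice of genes for a large shift of shared sign favours. The calls that survived each of the 16 omissions were 7, those of Isg20, Mettl14, Taf1b, Hpx, Ttr, Apoc3 and a gene without a symbol. Taf1b, a subunit of the RNA polymerase I initiation complex, is named here because of this count, after its values were seen.

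The shift has a part from each state. Among the 82 genes with a higher shift, the median polysome-minus-cytosol difference was 1.34 after activation and -0.48 ex vivo, against medians over all genes of -0.07 and 0.01. The part after activation was the larger one in 60 of them. Among the 59 genes with a lower shift the medians were -1.29 after activation and 0.14 ex vivo, and the part after activation was the larger one in 45. The shift is also the activation change on polysomes minus that in the cytosol. Values and counts away from those of all genes are thus largely built in by the selection and only describe the calls. Polysome-associated mRNA rose with activation in 63 of the 82 genes with a higher shift, where 22.8% of all genes rose. In 27 of these the cytosolic mRNA rose too, in 25 it did not pass the test and in 11 it fell, where 24.7% of all genes rose and 19.8% fell in the cytosol. In 15 further genes the cytosolic mRNA fell while the polysome-associated mRNA did not pass, and in the remaining 4 both fell. Of the 59 genes with a lower shift, the polysome-associated mRNA fell in 48, where 22.3% of all genes fell. Their cytosolic mRNA did not pass in 29, fell in 12 and rose in 7. The other genes had cytosolic mRNA that rose, without a call in the polysome fraction in 6 and with a rise there in 5.

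**Figure D2:**
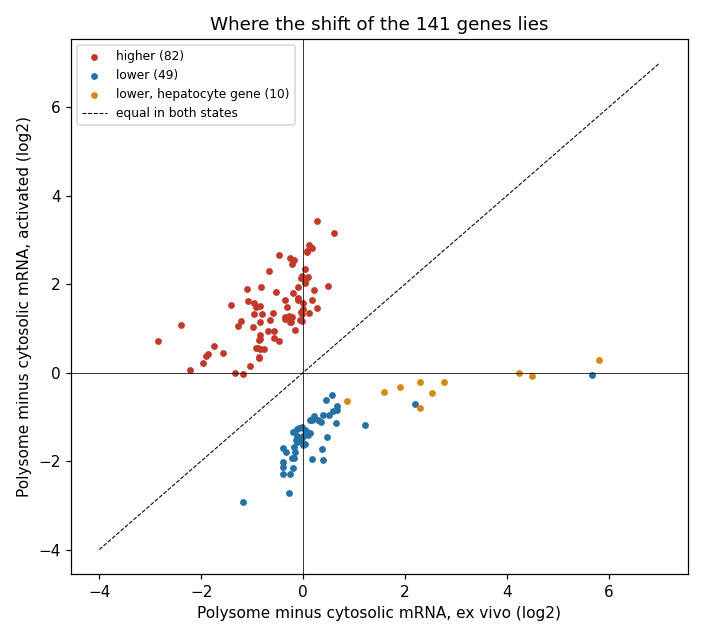
Polysome-minus-cytosol difference ex vivo (x axis, log2) against the same after activation (y axis, log2), averaged over both subsets, for the 141 called genes. Genes with a higher shift (red) lie above the dashed line of equality and mostly above 0 on the y axis, genes with a lower shift (blue) lie mostly at or below 0 on it, and 9 of the 10 hepatocyte genes (orange) differ by more than 1 ex vivo while all 10 lie between -0.79 and 0.28 after activation.

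Isg20, an interferon-induced exonuclease that degrades RNA, had the smallest adjusted p among the genes that shifted toward polysomes. Its cytosolic levels ex vivo were 9.22 and 9.0 in Foxp3+ cells and 8.77 and 8.97 in Foxp3- cells, and its polysome levels were 7.11 and 7.58, and 5.91 and 5.8. After activation the cytosolic levels were 6.56 and 7.14 in Foxp3+ cells and 7.08 and 6.22 in Foxp3- cells, and the polysome levels were 7.93 and 7.8, and 7.78 and 7.8. The order of the fractions thus turned in both subsets, with no overlap of arrays in any of the 4 pairs of groups. The shift was 3.47 ± 0.30 (SE, adjusted p = 0.00163), 2.78 in Foxp3+ and 4.15 in Foxp3- cells. Among the alternatives other than leaving out 1 array, the smallest shift was 0.80. The cytosolic mRNA of Isg20 fell by 2.24 with activation while its polysome-associated mRNA rose by 1.22.

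Mettl14, a subunit of the methyltransferase that writes N6-methyladenosine into mRNA, was near the middle of the array ex vivo and was raised in the activated polysome fraction. Ex vivo its levels were 4.98 and 4.65 in the cytosol and 3.95 and 4.52 on polysomes of Foxp3+ cells, and 5.38 and 5.31 against 5.56 and 5.27 in Foxp3- cells. In activated cells the cytosol held 5.1 and 4.99 in Foxp3+ and 4.83 and 5.23 in Foxp3- cells, and the polysomes held 6.79 and 6.27, and 8.93 and 8.56. The activated polysome arrays were thus above all the others in both subsets. The shift was 2.85 ± 0.28 (adjusted p = 0.00301), with 2.06 in Foxp3+ and 3.64 in Foxp3- cells, and the cytosolic change of -0.04 did not pass the test. Taf1b showed the same order, with cytosolic levels of 3.19 to 4.54 and polysome levels of 5.25 to 7.33 after activation and levels of 3.02 to 3.56 on all 8 ex vivo arrays.

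The largest higher shifts are given next for 20 genes above the median level of gene means, without genes that have no symbol or a predicted name, and Isg20 and Mettl14 are among them. The splicing proteins Snrnp27, of the tri-snRNP, and Rbm5 shifted by 3.56 ± 0.56 and 2.32 ± 0.46. Pabpn1, the nuclear poly(A)-binding protein, shifted by 2.94 ± 0.55, and Slbp, which binds the stem-loop of histone mRNAs, by 2.34 ± 0.45. The chromatin-bound proteins Psip1 and Glyr1 shifted by 3.15 ± 0.40 and 2.96 ± 0.54, and Gtf2f2, a subunit of the general transcription factor TFIIF, by 2.98 ± 0.55. For Psip1 the 2 subsets differed in size, at 4.59 in Foxp3+ and 1.70 in Foxp3- cells, and the test of that difference did not pass. The adjusted p of these 7 genes lay between 0.0123 and 0.0496.

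The other genes among these 20 belong to various pathways. Kif20a, a kinesin needed for cytokinesis, shifted by 2.68 ± 0.51, and its levels ex vivo were 2.44 to 3.22 in both fractions, below the mean level of 3.81 that bounds the lowest 4119 genes. After activation its cytosolic levels were 7.92 and 6.29 in Foxp3+ and 8.34 and 8.91 in Foxp3- cells, with 9.48 and 10.38, and 10.36 and 11.09, on polysomes. On the activated arrays the polysome levels were above the cytosolic ones in both subsets. The ubiquitin-linked proteins Wsb1, a substrate adaptor of a ligase, and Rad23b, a ubiquitin receptor, shifted by 2.77 ± 0.45 and 2.34 ± 0.45. Among enzymes, Atp5pb of the ATP synthase stalk shifted by 2.75 ± 0.39, the sialyltransferase St3gal1 by 2.40 ± 0.42 and lanosterol synthase Lss by 2.36 ± 0.42. Sh3bgrl (3.15 ± 0.39), Phlda1 (2.70 ± 0.54), Pdcd2 (2.37 ± 0.35), the iron-sulfur glutaredoxin Glrx3 (2.29 ± 0.45) and Ccdc115, an assembly factor of the proton pump (2.29 ± 0.38), complete them, with adjusted p-values of 0.0123 to 0.0496. The subsets contributed unequally to some of these means. Lss had 4.16 in Foxp3+ and 0.55 in Foxp3- cells (SE 0.60 each), where its difference between fractions after activation was -0.52. Wsb1 had 4.66 and 0.87 (SE 0.63 each). The direction of Ccdc115 turned under an anota-type covariance, which fits polysome levels on cytosolic levels with a slope in place of subtracting them (-0.35).

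**Figure D3:**
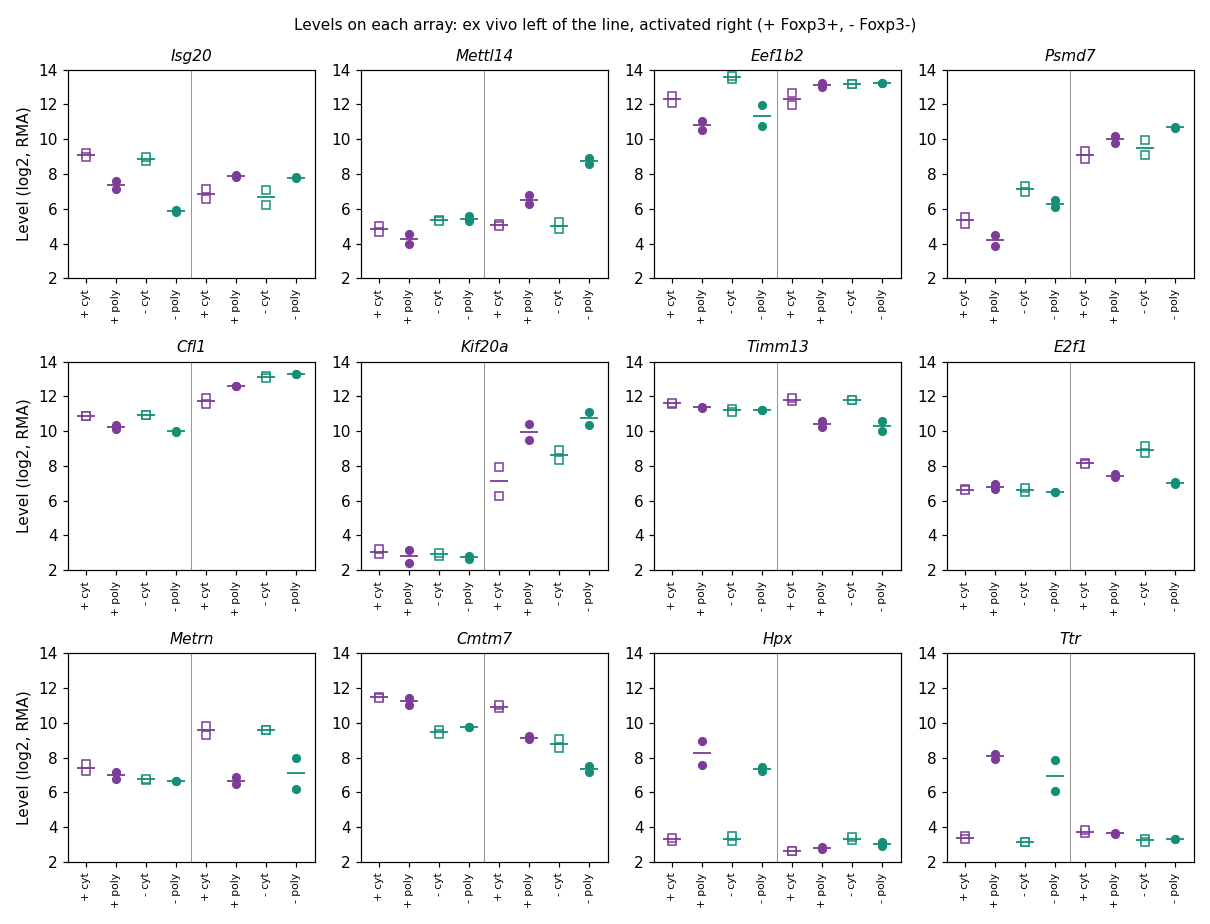
Levels of 12 genes (y axis, log2, RMA) on each of the 16 arrays, open squares for cytosolic and filled circles for polysome-associated mRNA, purple for Foxp3+ and green for Foxp3- cells, ex vivo left and activated right of the line, with bars at the mean of 2 arrays. Isg20, Eef1b2, Psmd7 and Cfl1 lie lower on polysomes than in the cytosol ex vivo, Timm13, E2f1, Metrn and Cmtm7 lie lower on polysomes after activation, and Hpx and Ttr are raised on the ex vivo polysome arrays.

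Among the genes of the translation machinery, the elongation factor Eef1b2, which exchanges nucleotide on eEF1A and has an oligopyrimidine tract, shifted by 2.29 ± 0.37 (adjusted p = 0.025). Ex vivo its cytosolic levels were 12.48 and 12.11 in Foxp3+ and 13.47 and 13.64 in Foxp3- cells, and its polysome levels were 11.07 and 10.51, and 11.95 and 10.75. The activated cytosol held 11.94 and 12.66, and 13.15 and 13.19, and the polysomes 12.99 and 13.22, and 13.25 and 13.21. The deficit on polysomes ex vivo was thus gone after activation in both subsets, at a cytosolic change of -0.19 that did not pass. Eif3d, the cap-binding subunit of eIF3, shifted by 1.13 ± 0.20 (adjusted p = 0.0376), with cytosolic levels of 10.27 to 11.22 and polysome levels of 9.38 to 9.82 ex vivo. After activation its fractions differed by -0.04.

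Of the 33 initiation factors measured, Eif3d was called higher and none lower, and 7 had a higher and none a lower shift at an unadjusted p under 0.05, where 5.77% and 6.91% of all genes did. Their median shift was 0.45, against -0.08 over all genes. Eif3h (1.71 ± 0.38, adjusted p = 0.064), Eif4a1 (1.17 ± 0.27, adjusted p = 0.0746) and Eif1ax (1.26 ± 0.33, adjusted p = 0.111) had values of the same sign in both subsets without passing. Of the 15 elongation and termination factors, Eef1b2 was called. Of the 21 aminoacyl-tRNA synthetase genes, Aimp1, a scaffold of the synthetase complex, was called at 2.01 ± 0.40, and their median was 0.61. Of 79 cytosolic ribosomal protein genes listed, the 19 measured had a median shift of 0.10 and none was called, with 4 higher and none lower at an unadjusted p under 0.05. Rpl4 had 1.12 ± 0.38 (adjusted p = 0.214) and Rpl14 had 0.86 ± 0.24 (adjusted p = 0.13). Most ribosomal protein genes have near-identical copies in the genome, so these levels are uncertain. Their median difference between fractions was -0.48 ex vivo and -0.40 after activation, where all genes stood at 0.01 and -0.07. None of the 62 ribosome biogenesis genes was called, and 12 were higher and 1 lower at an unadjusted p under 0.05. Ncl, the nucleolar protein nucleolin, had 1.5 ± 0.35 (adjusted p = 0.0768).

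The proteasome, the protease that degrades ubiquitinated proteins, had 15 of 41 measured genes (36.6%) with a higher and 1 with a lower shift at an unadjusted p under 0.05 (5.77% and 6.91% of all genes), and 2 called higher. Its median shift was 0.58, with 0.75 in Foxp3+ and 0.52 in Foxp3- cells. Psmd7, a subunit of the regulatory lid, had cytosolic levels ex vivo of 5.5 and 5.15 in Foxp3+ and 7.31 and 6.95 in Foxp3- cells, and polysome levels of 3.87 and 4.5, and 6.5 and 6.08. After activation the cytosol held 9.33 and 8.89, and 9.94 and 9.09, and the polysomes 10.18 and 9.79, and 10.66 and 10.73. The fractions did not overlap in any of the 4 pairs, and their order turned. The shift of Psmd7 was 2.01 ± 0.34 (adjusted p = 0.0279) on top of a cytosolic rise of 3.09. Psma7, of the core particle, shifted by 1.33 ± 0.25 (adjusted p = 0.0389), from -1.33 ex vivo to 0.00 after activation. The ATPase Psmc1 had 2.11 ± 0.49 (adjusted p = 0.0768).

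Chaperones had 12 of 36 members (33.3%) higher and none lower at an unadjusted p under 0.05 (5.77% and 6.91% of all genes), with a median shift of 0.51. Dnaja2, a cochaperone of HSP70, was called at 1.40 ± 0.27 (adjusted p = 0.0439). Fkbp4 (1.30 ± 0.27, adjusted p = 0.0547), the prefoldin subunit Pfdn2 (1.54 ± 0.41, adjusted p = 0.114) and the chaperonin subunit Cct2 (2.03 ± 0.52, adjusted p = 0.106) did not pass. The actin and tubulin list had 10 of 37 members higher and none lower by the same measure, with a median of 0.57. Cfl1, cofilin, which severs actin filaments, was called at 1.29 ± 0.18 (adjusted p = 0.0176). Ex vivo its cytosolic levels were 10.84 and 10.84 in Foxp3+ and 10.91 and 10.91 in Foxp3- cells, and its polysome levels 10.13 and 10.37, and 10.02 and 9.94. In activated cells the cytosol held 11.89 and 11.55, and 13.14 and 13.08, and the polysomes 12.58 and 12.61, and 13.3 and 13.29. The duplicates lay closer together than the fractions in all 4 pairs. Capzb (1.29 ± 0.29, adjusted p = 0.0687) and Cdc42 (1.48 ± 0.39, adjusted p = 0.112) did not pass.

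Genes that a dividing cell uses had medians above that of all genes, with few calls. Nucleotide synthesis had a median shift of 0.65 over 31 genes. At an unadjusted p under 0.05, 9 were higher (29%) and 1 lower (3.23%), where 5.77% and 6.91% of all genes were. Its 1 call was Prps2, which makes phosphoribosyl pyrophosphate (1.47 ± 0.29, adjusted p = 0.0496). Mthfd2, of mitochondrial folate metabolism, had 1.11 ± 0.26 (adjusted p = 0.0797). DNA replication had a median of 0.45 over 50 genes, 9 higher (18%) and none lower by the same measure, and no call. Top2a, topoisomerase IIα, had 1.72 ± 0.39 (adjusted p = 0.0692). The 59 mitosis genes had a median of 0.43 and 2 calls, the cytokinesis kinesins Kif20a and Kif23 (1.57 ± 0.31, adjusted p = 0.048). Kif23 had a shift of 0.6 in Foxp3+ and 2.54 in Foxp3- cells. Cytosolic mRNA rose in 28 of the 50 replication genes and in 35 of the 59 mitosis genes, where 24.7% of all genes rose. The 26 genes of the anaphase-promoting complex and cohesin had a median of 0.58 and none was called. Among the replication-dependent histones, H2bc4 was called at 2.27 ± 0.36 (adjusted p = 0.0239), from a mean level of 4.14. Its direction turned under the anota-type covariance (-3.44), and histone genes are close copies of each other, so its level is uncertain.

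E2f1, the transcription factor that opens the way into S phase, shifted the other way. Ex vivo its 8 levels lay between 6.48 and 6.94. The activated cytosol held 8.19 and 8.08 in Foxp3+ and 9.12 and 8.71 in Foxp3- cells, and the polysomes 7.34 and 7.54, and 6.98 and 7.07. Its polysome arrays were below the cytosolic ones in both activated subsets. The shift was -1.32 ± 0.21 (adjusted p = 0.0239), made of a cytosolic rise of 1.90 and a polysome rise of 0.58. Under the anota-type covariance, the kind of fit the study used, the direction turned (0.88, adjusted p = 0.657). The other 28 genes of the list of G1 cyclins, kinases and inhibitors held no call, and the list's median was 0.50.

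Splicing factors and hnRNPs had a median shift of 0.45 over 60 genes. At an unadjusted p under 0.05, 15 were higher (25%) and 2 lower (3.33%), where 5.77% and 6.91% of all genes were. Sfpq (2.12 ± 0.35, adjusted p = 0.025) and Hnrnpr (1.98 ± 0.36, adjusted p = 0.0376), both RNA-binding proteins of the nucleus, were called. The cytosolic mRNA of Hnrnpr fell by 1.66 while its polysome-associated mRNA did not pass the test, and both fractions of Sfpq rose. Ubiquitin ligases and deubiquitinases had medians of 0.27 and 0.01, with 1 call each, the scaffold Cul4b (2.55 ± 0.37, adjusted p = 0.0176) and the protease Usp9x (2.65 ± 0.50, adjusted p = 0.0399). Cul4b had a shift of 0.99 in Foxp3+ and 4.12 in Foxp3- cells. All 8 ex vivo arrays of Usp9x read 2.6 to 3.04, among the lowest levels, so its ex vivo difference between fractions is not a measured loading. The same holds for Kif20a, Kif23, Taf1b, Rif1 and Zfp770, whose ex vivo levels were all below 3.81. Histone-modifying enzymes had a median of 0.10 and 1 call, the demethylase Kdm5c (1.43 ± 0.24, adjusted p = 0.0288), and chromatin remodelers one of 0.16 and 1 call, Atrx (2.08 ± 0.31, adjusted p = 0.0213). The DNA repair list had a median of 0.10 and 1 call, Rif1 (1.42 ± 0.26, adjusted p = 0.0376), whose shift was 0.21 in Foxp3+ and 2.62 in Foxp3- cells. The only call among 300 numbered zinc finger proteins, whose median was -0.05, was Zfp770 at 1.18 ± 0.22. The shift of Zfp770 was 0.23 in Foxp3+ and 2.12 in Foxp3- cells, so its mean came mostly from Foxp3- cells.

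**Figure D4:**
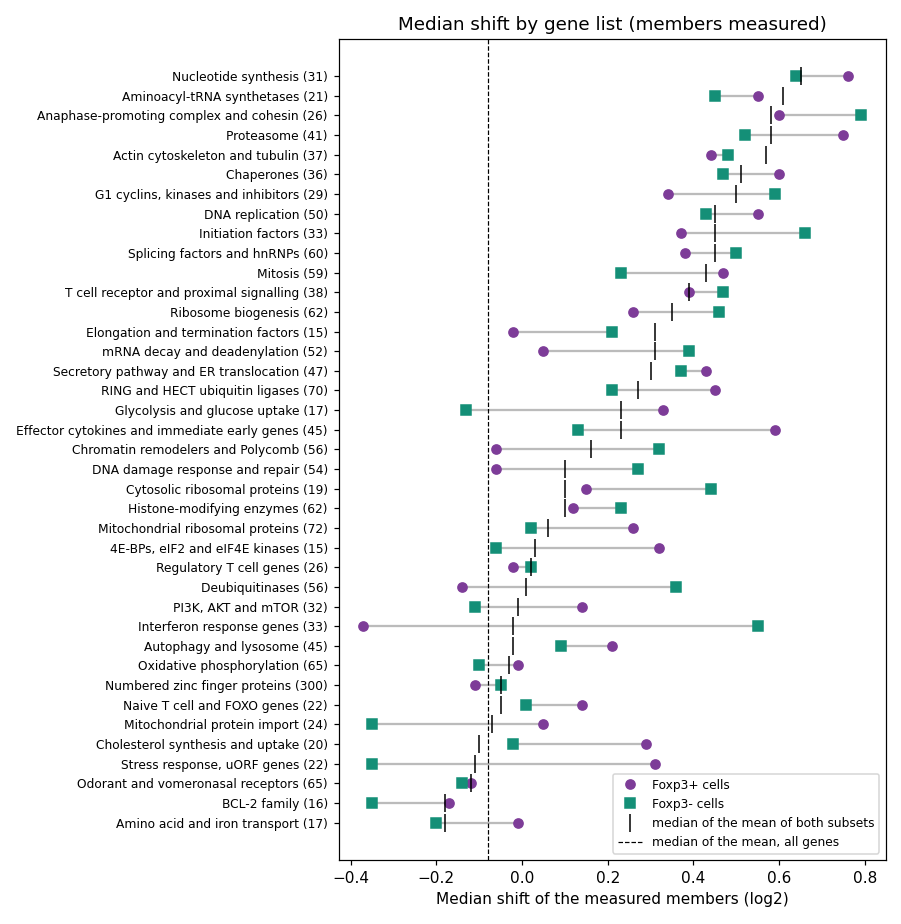
Median shift (x axis, log2) of the measured members of each list with at least 15 members (number in brackets), circles for Foxp3+ cells, squares for Foxp3- cells and ticks for the mean of both, with the median of all genes, -0.08, dashed. Nucleotide synthesis (0.65), the proteasome (0.58), actin and tubulin (0.57) and chaperones (0.51) lie to the right in both subsets, and oxidative phosphorylation (-0.03) lies near the median of all genes.

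T cell genes gave few calls. Of 38 genes of receptor signalling, none was called, and the median was 0.39. At an unadjusted p under 0.05, 10 had a higher (26.3%) and 1 a lower shift (2.63%), where 5.77% and 6.91% of all genes did. The cytosolic mRNA fell in 20 and the polysome-associated mRNA in 16 of the 38, where 19.8% and 22.3% of all genes fell. Ets1, a transcription factor of resting T cells, was called at 1.66 ± 0.27 (adjusted p = 0.025). Its cytosolic mRNA fell by 3.20 and its polysome-associated mRNA fell by 1.54, and under the anota-type covariance its direction turned (-1.06). The 26 regulatory T cell genes had a median of 0.02 and no call, with Ikzf4 at -1.19 ± 0.24 (adjusted p = 0.0516). Foxp3 had -0.25 ± 0.52, Ctla4 had -0.30 ± 0.58 and Tnfrsf18 had -0.07 ± 0.24, with adjusted p-values of 0.873 to 0.933. Effector cytokine and immediate early genes, interferon response genes and the PI3K, AKT and mTOR list had medians of 0.23, -0.02 and -0.01. Isg20 was the only call in these 3 lists.

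Of 8 genes chosen from those the study discusses, none was called. For Eif4e, the cap-binding protein, ex vivo levels lay between 5.14 and 5.73. In activated Foxp3- cells the cytosol held 6.87 and 6.29 and the polysomes 8.19 and 8.32, whereas activated Foxp3+ cells held 5.68 and 5.0 in the cytosol and 5.61 and 4.5 on polysomes. The shift was -0.26 in Foxp3+ and 1.78 in Foxp3- cells (SE 0.51 each), with an adjusted p of 0.449 for the difference and 0.394 for the mean of 0.76. Il2ra, a chain of the interleukin-2 receptor, had -0.57 and 2.07 (SE 0.41 each, adjusted p = 0.214 for the difference). The cyclins Ccne1 and Ccnd3 and the anaphase-promoting subunit Anapc4 had mean shifts of -0.36 ± 0.30, -0.41 ± 0.50 and 0.04 ± 0.36, with opposite signs in the 2 subsets.

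Among the genes whose shift was lower were subunits of the respiratory chain, which makes ATP in mitochondria. Oxidative phosphorylation held 4 lower calls and 1 higher call among 65 genes, where 0.358% and 0.498% of all genes were called. At an unadjusted p under 0.05, 14 were lower (21.5%) and 10 higher (15.4%), where 6.91% and 5.77% of all genes were. Both directions thus exceeded the shares of all genes, and the list's median was -0.03. The lower calls were Ndufa6 (-1.75 ± 0.32), Uqcr10 (-1.63 ± 0.32), Ndufv3 (-1.44 ± 0.23) and Cox6a1 (-1.06 ± 0.20), with adjusted p-values of 0.025 to 0.0488, subunits of complexes I, III, I and IV, and the higher one was Atp5pb. Ndufv3 lay between 11.5 and 12.5 on the 8 ex vivo arrays. After activation the cytosol held 12.42 and 12.74 in Foxp3+ and 12.5 and 12.15 in Foxp3- cells, and the polysomes 11.06 and 11.04, and 10.85 and 10.61. The activated polysome arrays were below all others. By complex, a split chosen after the values were seen, complex I had 10 lower and 2 higher of 33 measured subunits, complex IV 3 lower and none higher of 9, complex III 1 lower and 3 higher of 7, complex II none lower and 1 higher of 4, and ATP synthase none lower and 4 higher of 11. The direction of Uqcr10 turned under the anota-type covariance (0.11), and Ndufa6 had -2.86 in Foxp3+ and -0.64 in Foxp3- cells.

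Timm13, which escorts proteins across the space between the mitochondrial membranes, repeated this order. Its ex vivo levels lay between 11.12 and 11.64 in both fractions. In activated cells the cytosol held 11.71 and 11.88 in Foxp3+ and 11.78 and 11.76 in Foxp3- cells, and the polysomes 10.23 and 10.57, and 10.56 and 10.03. The shift was -1.33 ± 0.22 (adjusted p = 0.025), -1.17 and -1.49 in the 2 subsets. It was the 1 call among 24 genes of mitochondrial protein import. At an unadjusted p under 0.05, 5 of them were lower (20.8%) and 1 higher (4.17%), where 6.91% and 5.77% of all genes were. Of 72 mitochondrial ribosomal proteins, Mrpl19 was called higher (1.93 ± 0.38, adjusted p = 0.0479), and 13 were higher (18.1%) and 5 lower (6.94%) at an unadjusted p under 0.05.

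Other large lower shifts had the same make-up, with levels on polysomes below those in the cytosol after activation. Metrn, the secreted protein meteorin, shifted by -2.44 ± 0.45 (adjusted p = 0.0389). Its ex vivo levels lay between 6.65 and 7.63. The activated cytosol held 9.33 and 9.84 in Foxp3+ and 9.6 and 9.59 in Foxp3- cells, and the polysomes 6.46 and 6.87, and 7.99 and 6.21, so that a cytosolic rise of 2.50 was not followed on polysomes (0.06, which did not pass). Cmtm7, a membrane protein with a MARVEL domain, shifted by -1.65 ± 0.24 (adjusted p = 0.0176). Its ex vivo levels were 11.06 to 11.49 in Foxp3+ and 9.36 to 9.78 in Foxp3- cells. The activated cytosol held 10.84 and 11.05, and 8.55 and 9.05, and the polysomes 9.24 and 9.06, and 7.55 and 7.16. After activation the polysome level was below the cytosolic one by a log2 difference of -1.79 in Foxp3+ and -1.44 in Foxp3- cells, although the subsets held different amounts of the mRNA.

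The further lower shifts among the 20 largest chosen in the same way, which leaves out genes with no symbol or a predicted name, were Mief1, which recruits the mitochondrial fission machinery (-2.37 ± 0.33), Dpm2 of dolichol-phosphate mannose synthesis (-2.11 ± 0.42), the pre-rRNA processing protein Rrp36 (-2.10 ± 0.32), Erlin1 of the endoplasmic reticulum (-1.96 ± 0.34) and the xylosyltransferase Gxylt1 (-1.92 ± 0.34). With them stood the selenoprotein Selenow (-1.89 ± 0.38), Ss18l2 (-1.78 ± 0.23), guanylate kinase Guk1 (-1.76 ± 0.35), the phosphatase Ptpn18 (-1.73 ± 0.31), Ssbp4 (-1.65 ± 0.30), the RNase P subunit Rpp21 (-1.52 ± 0.25) and the coronin Coro2a (-1.51 ± 0.21). Their adjusted p-values lay between 0.0139 and 0.0496. The difference between fractions of these 12 genes was -0.39 to 0.67 ex vivo and -2.28 to -0.85 after activation. Ssbp4 (-0.44 and -2.85), Erlin1 (-0.88 and -3.04) and Rpp21 (-0.72 and -2.32) had the smaller value in Foxp3+ cells. Under the anota-type covariance the directions of Selenow (2.84) and Ss18l2 (0.33) turned. In Ss18l2 both fractions rose, the cytosolic one by 2.98 and the polysome one by 1.2. Ptpn18 lay between 11.32 and 12.54 ex vivo and on activated cytosolic arrays between 11.61 and 12.36, and between 9.7 and 10.74 on activated polysome arrays.

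The genes with a lower shift had short spans in the genome. The annotated span (RefSeq, GRCm38.p6) had a median of 8.49 kb over 56 of the 59 genes, 19.5 kb over 81 of the 82 with a higher shift and 21.2 kb over all 15752 genes with a span. Among the 7936 genes above the median level, the 1984 with the shortest spans had a median shift of -0.17 and the 1984 with the longest 0.10. These are descriptions across genes, and span is not the length of the mRNA. Over 4 classes from short to long the medians were -0.28, -0.13, 0.13 and 0.17 in Foxp3- cells and 0.01, 0.13, 0.11 and 0.05 in Foxp3+ cells.

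A separate group of lower shifts came from the ex vivo polysome arrays. Hpx, hemopexin, a heme-binding plasma protein made by the liver, read 7.58 and 8.94 on polysomes of Foxp3+ cells ex vivo and 7.26 and 7.48 on those of Foxp3- cells. On the other 12 arrays it lay between 2.65 and 3.49. Ttr, transthyretin, a further liver protein of the plasma, read 7.94 and 8.2, and 7.86 and 6.08, on the same arrays and 3.14 to 3.84 on the other 12. The shifts were -4.57 ± 0.35 (adjusted p = 0.000854) and -4.26 ± 0.42 (adjusted p = 0.00301), and the difference after activation was -0.08 and -0.01. Serpina1c, an antitrypsin with near-identical paralogs in the mouse, had the lowest shift of a gene with a symbol, -5.54 ± 0.69 (adjusted p = 0.0123). Apoc3 (-2.98 ± 0.31), Gnmt (-2.99 ± 0.55), Ambp (-3.08 ± 0.39) and Adh1 (-2.39 ± 0.37), known as liver genes too, were among the 20 chosen above the median level. The mean level of Apoc3, Gnmt and Ambp includes the ex vivo polysome arrays that raise it, and Apoc3 read 3.99 to 5.45 on the other 12. Passing the level filter thus does not show that these 3 genes were expressed on the other arrays. Adh1 differed from the rest in that it also read 7.15 to 10.05 in the cytosol ex vivo.

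A list of 50 hepatocyte genes was drawn up after these values were seen, 45 of them measured, and it bears no test. Of the 59 lower calls, 10 were on it. The mean level of the 45 genes was 5.51 and 5.76 on the ex vivo polysome arrays of Foxp3+ cells and 4.58 and 5.83 on those of Foxp3- cells, the lower value being array 8. It was 3.66 to 4.0 in the ex vivo cytosol and 3.76 to 4.61 on the 8 activated arrays. Of the 45 genes, 15 to 34 were above the array's median on the ex vivo polysome arrays, 3 to 7 in the ex vivo cytosol and 7 to 16 after activation. The summed log2 level of the list was 206.14 to 262.23, 164.63 to 180.1 and 169.4 to 207.33 in the same order. In 28 of the 45 genes all 4 ex vivo polysome arrays were above all 4 ex vivo cytosolic arrays, and in none were the activated fractions separated in this way. The same count was not made over all genes, and the list was drawn up for this pattern, so these counts only describe it. The median difference between fractions of the list was 1.27 ex vivo and -0.07 after activation. All genes stood at 0.01 and -0.07. Albumin (Alb) had 6.68 and 6.43, and 7.32 and 5.35, on these polysome arrays and -2.40 ± 0.63 as its shift (adjusted p = 0.112). In bulk RNA, the number of cells of a type, the RNA per cell and RNA from outside the sorted cells cannot be told apart. The source of these transcripts was not tested. With the 45 genes left out before the fit, 66 higher and 42 lower genes were called, 108 of them among the 141, and without arrays 2 and 4, the polysome array of each subset ex vivo with the higher level of these genes, 9 and 9. The part of these transcripts in the shifts of other genes was not tested.

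**Figure D5:**
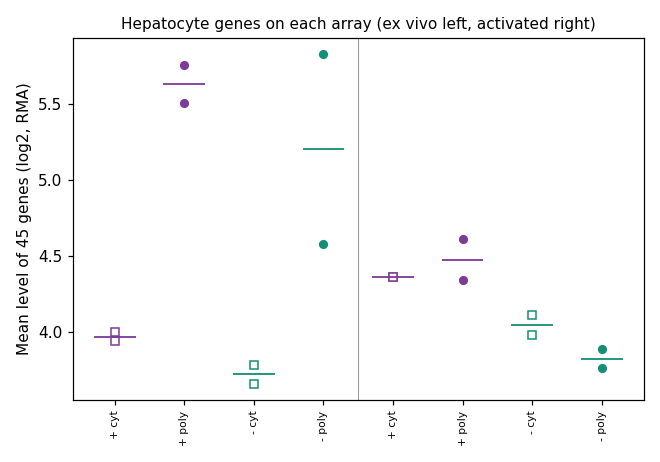
Mean level of 45 hepatocyte genes (y axis, log2, RMA) on each array, open squares for cytosolic and filled circles for polysome-associated mRNA, purple for Foxp3+ and green for Foxp3- cells, ex vivo left and activated right of the line, with bars at the mean of 2 arrays. The 4 ex vivo polysome arrays lie between 4.58 and 5.83, and the ex vivo cytosolic arrays between 3.66 and 4.0.

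Without the 10 hepatocyte genes, 49 lower calls remained, with a median difference between fractions of 0.03 ex vivo and -1.43 after activation. Of all lower calls, 12 had a difference over 1 ex vivo, and 9 of those were hepatocyte genes. The others stayed among the 49, namely Wfdc21 (2.19), Adh1 (1.21) and a gene without a symbol (5.67). The part after activation was the larger one in 45 of these 49 genes. Markers of other blood and stromal cells gave no call, and their lists had median shifts of -0.29 (8 B cell genes), 0.06 (13 myeloid genes), -0.35 (8 CD8 and NK cell genes), -0.51 (6 erythroid and platelet genes) and -0.12 (12 stromal and endothelial genes). The 65 odorant and vomeronasal receptors, not known to be used by T cells, had a median of -0.12 and no call.

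Members just inside the threshold included Phlda1, Rbm5, Dpm2, Selenow, Guk1, Prps2 and Aimp1 (adjusted p = 0.0496 each), and Ikzf4 lay just outside it at 0.0516. Called genes were more frequent at high levels. Of the 82 higher calls 42, and of the 59 lower calls 33, were among the 4119 genes with the highest mean level (above 6.74), and 3 and 2 among the 4119 with the lowest. At an unadjusted p under 0.05, 2246 genes passed for the mean shift.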

How the data were processed

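Cytosolic and polysome-associated RNA of 16 samples was amplified and read on mouse Affymetrix arrays by the authors. The deposited values are log2 levels that the authors obtained by RMA with probe sets redefined per Entrez gene, and this scale compresses low levels and gives no detection call. Of 16539 probe sets, 64 controls were left out, which left 16475 genes, 15780 with a symbol from the platform table. Groups came from the labels. In limma 3.58.1 (R 4.3.3) 1 mean per group was fitted to all 16 arrays. The shift was the contrast given above, averaged over subsets, tested two-sided with Benjamini-Hochberg adjustment over all genes. This replaces anota, which the authors used, and an anota-type covariance fit is an alternative. All groups share 1 estimate of the spread (8 residual and 2.87 prior degrees of freedom), although activated arrays vary more.

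The scripts were tested on simulated data. Where simulated spread differed between states, the share of unchanged genes among the calls exceeded the nominal rate, and the anota-type fit made many false calls. The simulated noise was drawn separately for each array, so the fractions shared none for the slope of that fit to use. Its rate of false calls on the real arrays is therefore not known. Genes were named by rule: the 20 largest called shifts per direction above the median level without genes that have no symbol, a predicted or accession-like name or are odorant receptors, up to 4 members per list with the smallest adjusted p, 8 genes the study discusses and the 5 with the smallest adjusted p for the difference between subsets. Hpx, Ttr, Serpina1c, Alb and Taf1b, and the hepatocyte list, were chosen after their values were seen. Members, lists and rule were chosen with earlier results of these data known. Lists bear no test. Start-site sequences matched 76.4% of genes, and 79.7% of those with a lower shift, so that check was void, and protein lengths were not analysed here. Alternatives were other weights, spreads, normalizations, filters, thresholds and each array left out.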

Additional observations from a re-analysis of the deposited data

Results flagged for a closer look

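The shift differed between the subsets in 4 genes by the test of the difference (limma, adjusted p = 0.0319 each). Activated Foxp3+ and activated Foxp3- arrays lie in different array series, so subset and series cannot be told apart in this difference. Rbm6, an RNA-binding protein, had a difference of -4.04 ± 0.51 (Foxp3+ minus Foxp3- cells, SE), with -0.22 in Foxp3+ and 3.81 in Foxp3- cells, and its activated Foxp3- polysome arrays read 7.9 and 7.79 against 4.03 to 5.23 on the other 14. L3mbtl3, a chromatin reader of methylated lysine, differed by -7.20 ± 0.90, with -3.90 and 3.29. Hgh1 differed by 3.52 ± 0.44, with 1.55 and -1.96. Rcc1l, a mitochondrial protein, differed by 5.04 ± 0.61, with 3.48 and -1.56. Dus4l, a tRNA dihydrouridine synthase, came next at -3.49 ± 0.50 (adjusted p = 0.0857). Rbm6 and Dus4l are 2 of the 3 genes that passed for the mean shift with subsets of opposite sign, and they are not among the 141.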

How the results depend on the processing

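In the genes followed, the direction of the shift changed less often than the calls. Of 97 genes followed through 29 alternatives, 81 kept their direction in each. Of these 97 genes, 70 were called in the same data, so their choice favours a kept direction. The counts of higher and lower calls were 54 and 41 with array weights and 45 and 24 over genes above the median level. Log ratios of array pairs (consecutive numbers, a pairing the labels do not state) gave 7 and 5, and held 9 of the 141 genes. The main fit takes no account of such pairs. Without arrays 2 and 4 (chosen after seeing the data) the counts were 9 and 9, and at a threshold of 0.15 they were 359 and 297. The anota-type covariance gave 788 and 791, and 350 and 339 with its slope filter, and held 56 and 38 of the 141 genes. Centring each array gave 96 higher and 43 lower calls, against 82 and 59, with a median of all genes of 0.00 in place of -0.08, and quantile normalization gave 67 and 75. With 1 array left out the counts ran from 3 to 269 and from 4 to 206. The cause of these changes was not tested. Signal over background was not given, and 2 arrays per group limit the estimate of the spread.

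Translation shift in Foxp3+ cells had 46 calls, and the counts were 0 with array weights or log ratios, 25 with an intensity trend, 89 after quantile normalization, 765 and 251 with the anota-type fits, 383 at 0.15, 8 without arrays 2 and 4 and 0 to 366 with 1 array left out. Translation shift in Foxp3- cells had 26 calls, and the counts were 100 with array weights, 11 with the spread of each state, 3 over genes above the median level, 16 after centring, 45 after cyclic loess, 0 from log ratios, 1267 and 593 with the anota-type fits, 167 at 0.15, 1 without arrays 2 and 4 and 0 to 91 with 1 array left out. For the difference between subsets (4 calls) they were 0 with array weights, cyclic loess, log ratios, both anota-type fits and without arrays 2 and 4, 1 with the spread of each state, 2 over genes above the median level and after quantile normalization, 17 at 0.15 and 0 to 64 with 1 array left out.

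Directions turned under the anota-type covariance for Ccdc115 (-0.35), Selenow (2.84), Ss18l2 (0.33), Uqcr10 (0.11), Ets1 (-1.06), E2f1 (0.88), H2bc4 (-3.44), Ccne1 (0.04), Anapc4 (-0.21), Foxp3 (1.85), Ctla4 (3.53), Tnfrsf18 (0.25), L3mbtl3 (0.19), Hgh1 (1.06) and Rcc1l (-1.95), with adjusted p-values of 0.0529 to 0.986, and the slope filter gave the same values where it kept the gene. Tnfrsf18 reached 0.00 after centring and 0.03 without arrays 2 and 4, Ctla4 0.08 without these arrays and Anapc4 -0.08 after quantile normalization. With 1 array left out the uncalled genes Anapc4 (-0.25 to 0.32), Ccnd3 (-0.87 to 0.06), Ctla4 (-0.73 to 0.14), Foxp3 (-0.65 to 0.14), L3mbtl3 (-0.65 to 0.03) and Tnfrsf18 (-0.22 to 0.07) crossed 0 in their mean shift. Among the alternatives other than leaving out 1 array, some called shifts shrank without turning, with Isg20 at 0.80, Hnrnpr at 0.49, Metrn at -0.44 and Gxylt1 at -0.52. Others grew, such as Kif20a at 8.93 and Sfpq at 4.69. The medians of the proteasome list ran from 0.52 to 0.67 and those of the chaperones from 0.44 to 0.59.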
